A study of Mus musculus with 7 samples.

Results

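The genes described here encode the subunits of the receptors for glutamate and for GABA, the main excitatory and the main inhibitory transmitter of the cerebral cortex. They were chosen by symbol alone, as every gene column of the single-nucleus count tables named for an AMPA (Gria), kainate (Grik), NMDA (Grin), delta (Grid) or metabotropic glutamate (Grm) subunit, or for a GABA-A (Gabr with an alpha, beta, gamma, delta, epsilon or theta letter) or GABA-B (Gabbr) subunit. This gave 42 genes among 25870 gene columns: 4 AMPA, 5 kainate, 6 NMDA, 2 delta, 8 metabotropic glutamate (mGlu), 15 GABA-A and 2 GABA-B genes. The patterns can give 43 names, and the remaining name, Grin2c, had no column, so its RNA was not analysed here.

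The single-nucleus RNA data came from 1 sample of primary visual cortex of C57BL/6J mice of 6 to 10 weeks, all injected with an AAV9 library of candidate regulatory elements, so no uninjected nuclei entered the RNA comparisons. It was deposited as 10 droplet libraries in 2 sets of 5, and the study's methods give 5 libraries for each of 2 animals, but the labels do not tie a set to an animal. The chromatin data were 6 ATAC-seq samples, 2 for each of somatostatin (SST), parvalbumin (PV) and vasoactive intestinal peptide (VIP) neurons, from the whole cortex of uninjected F1 mice of 6 to 12 weeks. These mice carried Sst-IRES-Cre, Pv-Cre or Vip-IRES-Cre together with the nuclear envelope reporter SUN1-2xsfGFP-6xMYC, and nuclei were captured with an antibody to GFP, so each group holds every cortical cell in which its Cre had been active.

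AMPA, kainate and NMDA receptors are assemblies of subunits that open a cation channel when glutamate binds, and the subunits present set how fast the channel closes and whether calcium passes. AMPA receptors without GluA2, the product of Gria2, let calcium through, and NMDA receptors need GluN1, the product of Grin1, together with GluN2 or GluN3 subunits. The mGlu and GABA-B receptors act through G proteins, while GABA-A receptors are chloride channels that most often combine alpha, beta and gamma subunits, with delta in place of gamma in receptors outside the synapse. Cortical interneurons that express SST target dendrites, those that express PV target cell bodies and nearby compartments, and those that express VIP mainly target other interneurons.

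Of 47348 barcodes, 31896 had more than 200 unique molecular identifiers (UMIs) that were not viral, with a median of 713 and a mean of 876. Libraries held 2448 to 3555 of these nuclei and 2478347 to 2981225 UMIs, and 5368 of the 25579 distinct barcode sequences occurred in more than 1 library. The tissue is labelled male, yet Xist stood at 45.0 to 56.6 UMIs per 10000 in the 10 libraries against 0.141 to 0.230 for 4 Y-linked genes together, so the label and the RNA disagree in every library. Nuclei were assigned to 15 types by their markers, none of which is a receptor gene described here: 4 inhibitory types (SST, 675 nuclei; PV, 373; VIP, 381; NPY, 276), 6 excitatory types named for their layer (L2/3, 401; L4, 150; L5 IT, 141; L5 PT, 280; L5 NP, 112; L6, 393; IT, PT and NP mark intratelencephalic, pyramidal tract and near-projecting cells), and astrocytes (880), oligodendrocyte precursors (OPC, 216), oligodendrocytes (1098), microglia (312) and endothelial cells (415). These 6103 nuclei were 19.1% of those kept, and a further 56 that met the rules of more than 1 type were left out. The share of nuclei within 1 UMI of a marker cut ran from 1.37% in oligodendrocytes to 68.7% in L4.

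Clusters computed without the receptor genes held 90.7% of SST, 97.1% of PV, 96.6% of VIP and 96.1% of astrocyte nuclei under the same name, 63.4% to 88.4% of NPY, L2/3, L5 PT, L5 NP and OPC nuclei, but 36.6% of L6 nuclei and none of the L5 IT nuclei. The cluster with most L4, L5 IT and L6 nuclei (76, 79 and 175) was the same one. It was counted as L4 when clusters replaced the gates, but its 10 leading genes held Deptor and Dkkl1 of the L5 IT markers and Rprm of the L6 markers beside Rorb of the L4 markers, so it mixes layers. Another cluster counted as L4 and 1 counted as L2/3 had no marker of any type among their 10 leading genes. The cluster with most L5 NP nuclei (71) had Ctgf and Nxph4 of the L6 markers among its leading genes, beside Lypd1, Tshz2 and Trhr. L6 markers summed to 5.87 UMIs per 10000 in L5 NP, and whether L6 nuclei entered that gate was not tested. Of the 393 L6 nuclei, 235 lay in clusters of another type, so the layer comparisons below rest on the marker gates, and layer values from clusters describe mixed classes. L5 IT is therefore a class defined by its markers alone, and the endothelial nuclei also carried mural markers at 85.8 UMIs per 10000. A level below is the number of UMIs of a gene per 10000 non-viral UMIs summed over the nuclei of a type, with an exact 95% Poisson interval that covers counting error only. All nuclei belong to 1 GEO sample, so no p-value was computed between types. The range over the 10 libraries is given instead, and genes count as higher or lower when levels differed at least 2-fold with at least 20 UMIs in both types together. Levels are compared across types for each gene, never between genes, since they are not corrected for length.

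The 42 genes took 275275 UMIs, 0.985% of all UMIs. The number with at least 50 UMIs was 37, and the other 5, Gabra6 (17 UMIs), Gabrq (45), Grin3b (16), Grm4 (36) and Grm6 (18), could not be compared between types at this depth. Gabrb2 (361 UMIs) and Grin2a (544 UMIs) also rested on few counts. Among the 1705 inhibitory against the 1477 excitatory nuclei, 35 genes had enough UMIs, and 6 were higher and 2 lower at least 2-fold, where 15.4% of all 11842 genes with enough UMIs differed that much (7.49% higher, 7.9% lower). Their median log2 difference was 0.03 against 0.00 over all genes, and for 9 of them the 10 libraries of one class did not overlap those of the other (5.55% of all genes). SST nuclei had 9 genes higher and 4 lower than PV of 30 compared (13.7% of all genes; 7.43% higher, 6.24% lower), and 8 higher and 6 lower than VIP of 32 (17.3%; 11.3% higher, 6.07% lower). PV nuclei had 4 higher and 7 lower than VIP of 28 (23.6%; 14.8% higher, 8.81% lower). The libraries of the types did not overlap for 7 genes between SST and PV (1.49%), 6 between SST and VIP (1.9%) and 3 between PV and VIP (2.66%).

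Excitatory types of different layers were compared in the same way. L6 had 3 genes higher and 4 lower than L2/3 of 27 compared (16.4% of all genes; 6.08% higher, 10.4% lower), L4 had 1 higher and 6 lower than L2/3 of 25 (16.5%; 5.4% higher, 11.1% lower), and L5 PT had 7 higher and 3 lower than L5 IT of 31 (15.6%; 9.33% higher, 6.26% lower). Astrocytes had 4 genes higher and 24 lower than the excitatory nuclei of 34 compared, where 48% of all genes differed at least 2-fold (14.2% higher, 33.8% lower), and OPC had 6 higher and 17 lower of 34 (35.4%; 16% higher, 19.4% lower). Libraries did not overlap for 1 gene in L6 (2.2% of all genes), 1 in L4 (0.341%), 0 in L5 PT (0.725%), 17 in astrocytes (13.2%) and 7 in OPC (9.27%). Markers of astrocytes summed to 33.5 UMIs per 10000 in L4, 22.04 in L6 and 21.4 in L5 IT, against 10.7 in L2/3 and 6.28 in L5 PT, with at most 2 of 12 markers at 0, and their part in the layer differences was not tested. Several of these comparisons share a group of nuclei, such as SST, VIP or the excitatory nuclei, so their counts are not independent of each other.

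**Figure D1:**
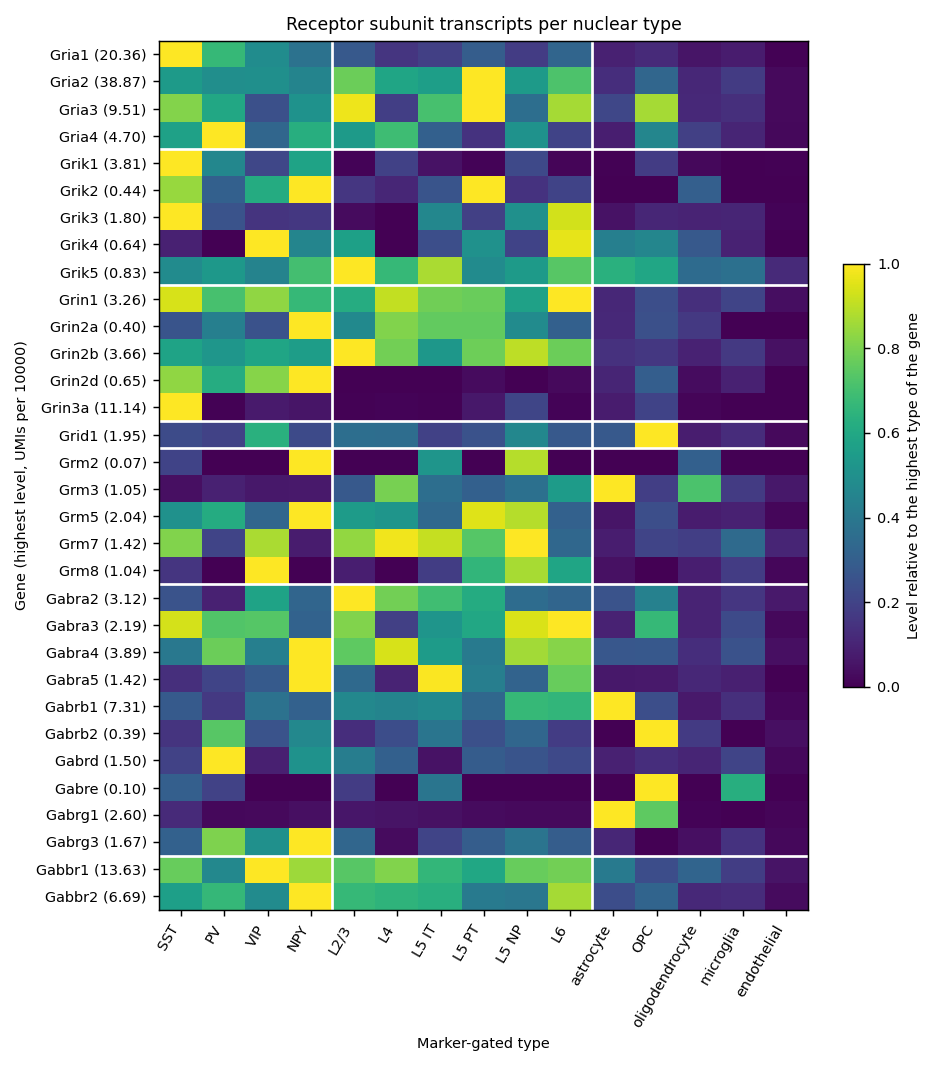
Level of 32 receptor genes in each of the 15 types, scaled within each gene (columns, types; rows, genes grouped by family), so that colours compare types for 1 gene and not genes with each other. Grin3a, Grik1 and Gria1 were highest in SST, Gabrd and Gria4 in PV, Gria2 in L5 PT, and Gabrg1 and Gabrb1 in astrocytes.

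The AMPA subunit Gria1 (GluA1; GRCm38 chr11:57011387-57330244, plus strand) was highest in SST nuclei, with 16.6, 20.9 and 23.5 UMIs per 10000 as the lowest, median and highest library. The pooled levels were 20.4 (95% interval 19.3 to 21.5) in SST, 13.6 (12.6 to 14.7) in PV, 9.93 (8.83 to 11.1) in VIP and 7.67 (6.67 to 8.78) in NPY nuclei, and the intervals of neighbours in this order did not overlap, although those of VIP and NPY nearly met. The 6 excitatory types ranged from 3.15 in L4 to 6.66 in L6. All 10 libraries of the inhibitory nuclei (12.2 to 16.8) lay above all 10 of the excitatory nuclei (4.41 to 6.34), a difference of 2.70-fold (2.53 to 2.89) that was 2.61-fold in library set 1 and 2.77-fold in set 2. SST nuclei were 2.05-fold (1.81 to 2.33) above VIP, again without overlap of libraries, although the mean over nuclei gave 1.78-fold and leaving out library 1 or 3 of set 1 or library 3 of set 2 gave just under 2-fold (lowest 1.97).

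Gria2 (GluA2; chr3:80681450-80802835, minus strand), whose product makes AMPA receptors nearly impermeable to calcium, was lower in the inhibitory than in the excitatory class. It was highest in L5 PT, at 33.4, 39.3 and 43.6 in the lowest, median and highest library, and its pooled level there was 38.9 (37.2 to 40.6) against 30.2 (28.8 to 31.7) in L2/3, the next type. Inhibitory nuclei had 17.4 to 21.9 per library and excitatory nuclei 28.2 to 31.9, so the libraries did not overlap, although the 1.49-fold difference (1.43 to 1.55) stayed under 2-fold. Single types were closer, as SST nuclei had 1436 Gria2 UMIs among 676750, near L5 IT (571 among 262731) and L4 (492 among 215854). As a share of all UMIs of the 4 AMPA genes, Gria2 made up 45.6% (exact binomial 95% interval 44.4 to 46.7) in inhibitory and 66.5% (65.6 to 67.5) in excitatory nuclei, and Gria1 33.9% (32.8 to 34.9) and 12.3% (11.7 to 12.9). Such shares are compared across types only, since they are not corrected for length either.

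Gria3 and Gria4, the other AMPA subunits, differed more between types of one class than between the classes. Gria3 stood at 0.549 to 3.66 per library in L4 (pooled 1.76) and at 8.35 to 11.1 in L2/3 (pooled 9.26), which put L4 5.26-fold lower (3.78 to 7.52) with no overlap. It was also low in VIP nuclei (pooled 2.32), 3.34-fold (2.60 to 4.36) under SST and 2.47-fold (1.89 to 3.26) under PV. With the types taken from clusters, the difference between PV and VIP was 1.80-fold, and the mixed clusters counted as L4 were 1.62-fold under those counted as L2/3. In astrocytes, whose markers were higher in L4 than in L2/3, Gria3 was at 2.01. Gria4 was highest in PV nuclei, at 3.04, 4.72 and 6.21 in the lowest, median and highest library, 3.04-fold (2.21 to 4.27) above VIP. Among excitatory types Gria4 was lowest in L5 PT (0.685) and L6 (0.947), 2.11-fold (1.3 to 3.43) under L5 IT and 2.70-fold (1.96 to 3.75) under L2/3, the latter 1.77-fold with types from clusters and the former 1.78-fold in library set 2 and 1.98-fold without its library 2.

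**Figure D2:**
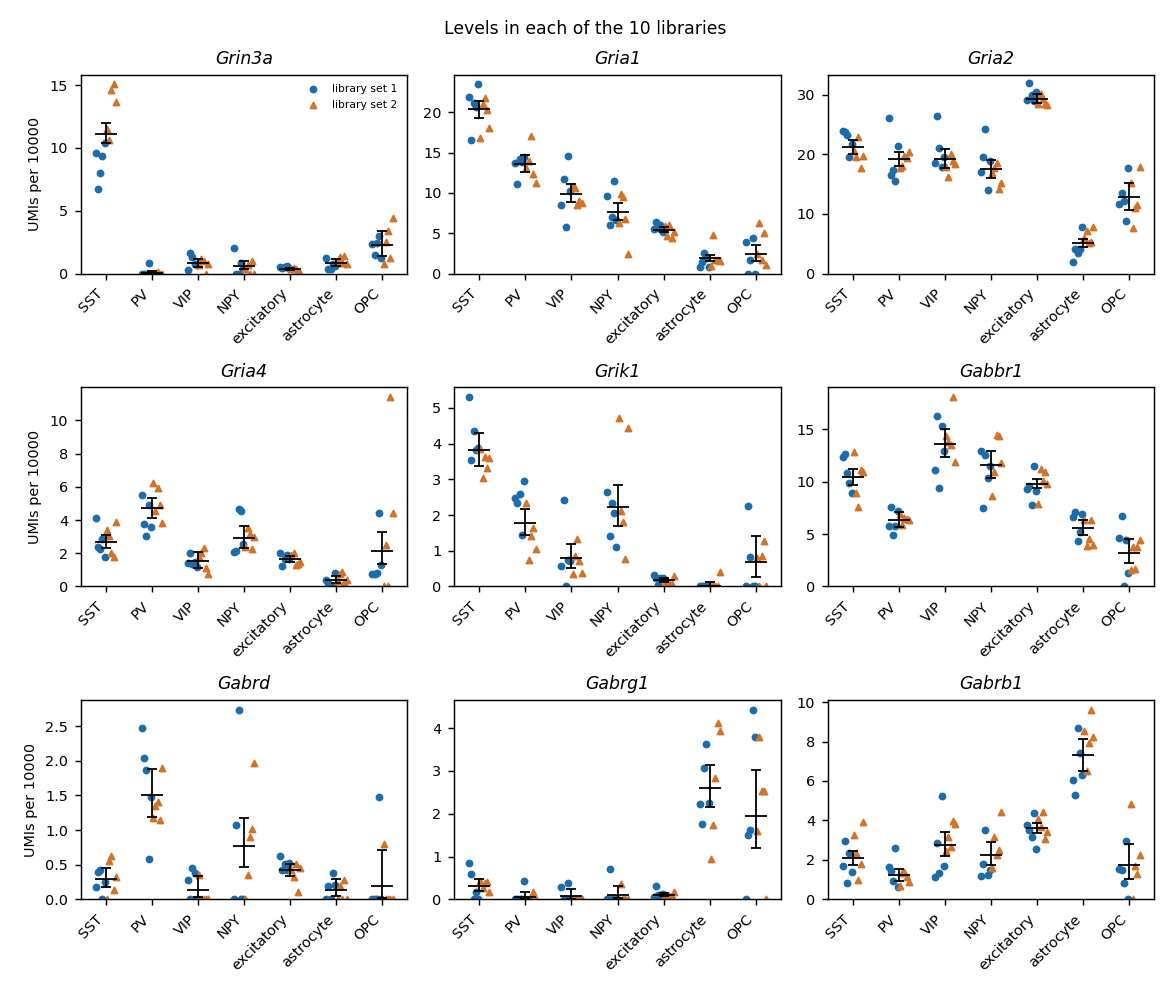
Level of 9 receptor genes (y axis, UMIs per 10000) in each of the 10 libraries for SST, PV, VIP, NPY, all excitatory, astrocyte and OPC nuclei (x axis). Blue circles are libraries of set 1, orange triangles those of set 2, and the black bar is the pooled level with its exact 95% Poisson interval. The Grin3a libraries of SST nuclei (6.71 to 15.1) all lie above every library of the other types and the Gabbr1 libraries of PV (4.92 to 7.56) lie below those of SST and VIP.

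The kainate subunits separated interneurons from most excitatory nuclei through Grik1 (GluK1; chr16:87895900-88290265, minus strand). Its libraries ran from 3.03 to 5.31 in SST nuclei around a median of 3.73, and its pooled levels were 3.81 (3.36 to 4.31) in SST, 2.22 (1.70 to 2.85) in NPY, 1.77 (1.43 to 2.17) in PV and 0.805 (0.516 to 1.20) in VIP. NPY and PV did not differ beyond their intervals. Excitatory nuclei as a whole had 0.0509 to 0.316 per library, which made the inhibitory level 13.9-fold higher (10.0 to 19.6), although L4 (0.741) and L5 NP (0.839) were at the level of VIP, and 6.99-fold with types from clusters. SST nuclei were 2.15-fold (1.69 to 2.76) above PV, where 1 set of libraries gave 1.74-fold, the other 2.50-fold, clusters 1.62-fold and the libraries without library 2 of set 2 1.99-fold, and 4.73-fold (3.11 to 7.52) above VIP.

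Grik3 (GluK3), another kainate subunit, differed between layers. L6 nuclei had 0.781 to 2.44 per library and L2/3 nuclei 0 to 0.229, with 96 and 3 UMIs, a ratio of 32.5 whose counting interval ran from 10.8 to 161. It was 5.54 with types from clusters and 82.9 without library 1 of set 1, which left 1 UMI in L2/3. It made up 55.2% (47.5 to 62.7) of kainate UMIs in L6 and 3.85% (0.800 to 10.8) in L2/3, where Grik5, a subunit that needs a partner to form channels, held 61.5% (49.8 to 72.3). Among interneurons Grik3 was 3.90-fold (2.50 to 6.32) higher in SST than in PV and 6.71-fold (3.30 to 15.9) higher than in VIP. Grik2, Grik4 and Grik5 reached at most 0.437, 0.638 and 0.828 UMIs per 10000 in a neuronal type.

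Among NMDA receptor genes, Grin3a (GluN3A; chr4:49661611-49845744, minus strand), which encodes a glycine-binding subunit that lowers calcium flow through the receptor, marked SST nuclei most sharply. Its libraries there had 6.71, 10.5 and 15.1 UMIs per 10000 as the lowest, median and highest, and of all 42 genes it was the only one whose lowest library in its top type lay above the highest library of the second type. The pooled level was 11.1 (10.4 to 12.0) in SST from 754 UMIs. PV nuclei had 4 UMIs (0.0770; 0.0210 to 0.197), a 145-fold difference with a counting interval of 56.3 to 532. VIP and NPY nuclei had 0.805 (0.516 to 1.20) and 0.618 (0.360 to 0.990), 13.8-fold (9.23 to 21.7) under SST in the case of VIP. With types from clusters the differences from PV and VIP were 32.8-fold and 7.05-fold, and without library 4 of set 1 that from PV was 549-fold, with 1 UMI left in PV. Barcodes with 200 or fewer UMIs, in which free RNA can weigh more, had 0.509.

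Outside SST nuclei, Grin3a was highest in L5 NP (2.32; 1.63 to 3.22) and OPC (2.25; 1.43 to 3.37), whose intervals overlapped, and the remaining excitatory types had 0.0517 to 0.704. Grin3a held 80.0% (77.3 to 82.5) of the UMIs of the GluN2 and GluN3 genes in SST nuclei, against 2.96% (0.813 to 7.41) in PV and 22.4% (14.9 to 31.5) in VIP. In L2/3 and L6 more than 90% of those UMIs came from Grin2b, with 93.8% and 91.0%.

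Grin2d (GluN2D), a subunit of slowly closing receptors, had 92 UMIs in the inhibitory and 2 in the excitatory nuclei that were assigned, of 226 UMIs in all kept nuclei. The ratio was 60.1 with a counting interval of 16.2 to 503, and it was higher in 10 of 10 libraries. Both excitatory UMIs came from library set 2, where the ratio was 30.6, and with none in set 1 it was at least 19.2 there, taking 3 counts as the floor. It was 16.9 with types from clusters, 15.0 against all nuclei with excitatory markers, and 111 and 110 without library 1 or 2 of set 2, which left 1 excitatory UMI. The 4 interneuron types had 0.404 to 0.655 with overlapping intervals. Grin1, which every NMDA receptor needs, lay between 1.87 and 3.26 in all 10 neuronal types, and Grin2b between 1.93 and 3.66. Neither passed 2-fold between inhibitory and excitatory nuclei, where they stood at 2.65 against 2.58 and 2.06 against 2.98. Grin2a, the subunit that joins mature synapses, had at most 0.400 in any type, from 544 UMIs in all nuclei.

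The delta subunits bind cerebellins and related secreted proteins across the synapse. RNA of Grid1 was highest in OPC (1.95; 1.19 to 3.02) and, among neurons, in VIP nuclei (1.24; 0.874 to 1.71), 2.80-fold (1.68 to 4.69) above SST and 3.22-fold (1.82 to 5.86) above PV. Its VIP libraries (0.382 to 2.10) overlapped those of SST (0.163 to 1.00) and of PV (0 to 0.841).

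The G protein coupled mGlu receptors fall into groups by their signalling. Grm5, a group I receptor that activates phospholipase C, was highest in NPY (2.04; 1.54 to 2.65) and L5 PT (1.94; 1.58 to 2.35), whose intervals overlapped. Its level was lowest among interneurons in VIP nuclei (0.671; 0.410 to 1.04), while SST (1.03; 0.806 to 1.31) and PV (1.25; 0.966 to 1.60) did not differ beyond their intervals, and the SST and VIP intervals overlapped. It was 2.83-fold (1.70 to 4.97) higher in L5 PT than in L5 IT, in 10 of 10 libraries, at 1.92-fold in library set 1 and 6.02-fold with stricter gates. Grm5 stood at 0.114 in astrocytes, whose markers were higher in L5 IT. It did not pass 2-fold between inhibitory (1.19) and excitatory (1.18) nuclei.

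Grm3, a group II receptor that inhibits adenylyl cyclase, was 6.45-fold (3.53 to 12.9) lower in inhibitory than in excitatory nuclei, with library ranges of 0 to 0.124 and 0.196 to 0.725 that did not overlap. Grm7, a group III receptor of axon terminals, stood at 1.15 in SST, 1.24 in VIP and 0.289 in PV, which made PV 3.99-fold (2.28 to 7.47) lower than SST and 4.30-fold (2.30 to 8.43) lower than VIP, the former 2.22-fold in library set 1 and 6.35-fold in set 2. Of all types Grm7 was lowest in NPY, at 0.109 from 3 UMIs. It was 2.51-fold (1.59 to 4.08) lower in L6 than in L2/3, and 1.93-fold with types from clusters.

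**Figure D3:**
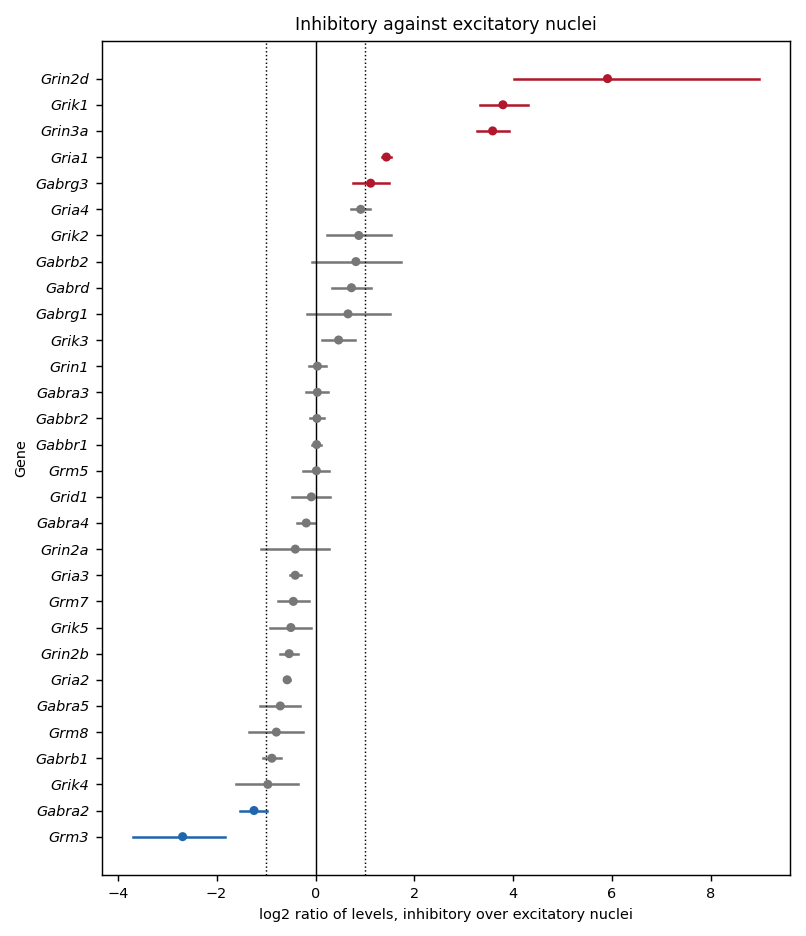
Log2 ratio of the pooled level in inhibitory over that in excitatory nuclei (x axis) for 30 of the 35 receptor genes with at least 20 UMIs (rows), with exact 95% intervals as bars and dotted lines at 2-fold. Grin2d, Grik1, Grin3a, Gria1 and Gabrg3 lie beyond the line on the inhibitory side, and Grm3 and Gabra2 on the excitatory side. The Grin3a ratio rests mostly on SST nuclei, with 754 UMIs there against 4 in PV, 24 in VIP and 17 in NPY.

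Among GABA-A receptor genes, Gabrd (delta, a subunit of receptors outside synapses) was highest in PV, with 1.5 (1.19 to 1.87) against 0.296 (0.181 to 0.456) in SST and 0.134 (0.0366 to 0.344) in VIP, differences of 5.08-fold (3.08 to 8.77) and 11.2-fold (4.20 to 42.1), the latter 20.5-fold in library set 2, from 1 UMI in VIP. The PV and VIP libraries did not overlap (0.575 to 2.47 and 0 to 0.449), while the PV and SST libraries touched. Gabrg3 was 2.61-fold (1.71 to 4.03) lower in SST than in PV, and 2.17-fold (1.69 to 2.79) higher in inhibitory than in excitatory nuclei, at 1.52-fold in set 1, 2.87-fold in set 2 and 1.98-fold without library 1 of set 2. Its highest levels were in NPY (1.67), PV (1.35) and VIP (0.839). SST nuclei, with 35 Gabrg3 UMIs among 676750, were at the level of L2/3, with 32 among 579859.

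Alpha subunit genes differed in order among themselves. Gabra2, found at the axon initial segment of pyramidal cells, was highest in L2/3 (3.12; 2.68 to 3.61) and lowest among neurons in PV (0.289; 0.162 to 0.476), and inhibitory nuclei had 2.37-fold (1.97 to 2.87) less than excitatory nuclei. VIP nuclei (1.81) exceeded PV 6.28-fold (3.49 to 12.0) and SST 2.27-fold (1.53 to 3.38), SST exceeded PV 2.76-fold (1.54 to 5.27), and L6 was 3.07-fold (2.27 to 4.20) lower than L2/3. With types from clusters Gabra2 differed 1.27-fold between SST and PV and 3.28-fold between VIP and PV. Gabra3 stood at 2.05 in SST and 1.60 in PV. It was 4.26-fold (2.16 to 9.58) lower in L4 than in L2/3, and 1.12-fold between the mixed clusters counted as these layers. Gabra5, which forms receptors outside synapses, was highest in NPY (1.42; 1.01 to 1.94) and L5 IT (1.41; 0.992 to 1.94). L5 IT exceeded L5 PT 2.31-fold (1.4 to 3.84), although their libraries overlapped (0 to 4.04 and 0.166 to 1.26), and L6 exceeded L2/3 2.25-fold (1.42 to 3.65). The difference between L5 IT and L5 PT was 1.51-fold in library set 1 and 1.67-fold without library 5 of set 2. That between L6 and L2/3 was 1.73-fold without library 4 of set 2, just under 2-fold without library 5 of set 1, 1.94-fold with types from clusters and 3.59-fold with stricter gates. Gabra4 lay between 1.55 in SST and 3.89 in NPY over all neuronal types.

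Of the beta subunit genes, Gabrb1 ranged from 1.21 in PV to 4.91 in L5 NP among neurons. It was 2.27-fold (1.61 to 3.20) lower in PV than in VIP, at 1.69-fold in library set 1 and 1.82-fold with types from clusters. Gabrb2 had at most 0.391, from 361 UMIs over all nuclei. The GABA-B subunits were near even between the classes, with inhibitory and excitatory nuclei at 9.95 and 9.79 for Gabbr1, which binds GABA, and at 4.33 and 4.24 for Gabbr2, which couples to the G protein. Single types differed more. PV nuclei had Gabbr1 at 4.92 to 7.56 per library against 9.43 to 18.1 in VIP and 7.62 to 12.8 in SST. They were 2.15-fold (1.86 to 2.50) lower than VIP and 1.65-fold (1.44 to 1.88) lower than SST, without overlap in either case, and the former was 1.67-fold with types from clusters. Gabbr2 was highest in NPY (6.69), with 184 UMIs among 274926, against 96 among 297978 in VIP.

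**Figure D4:**
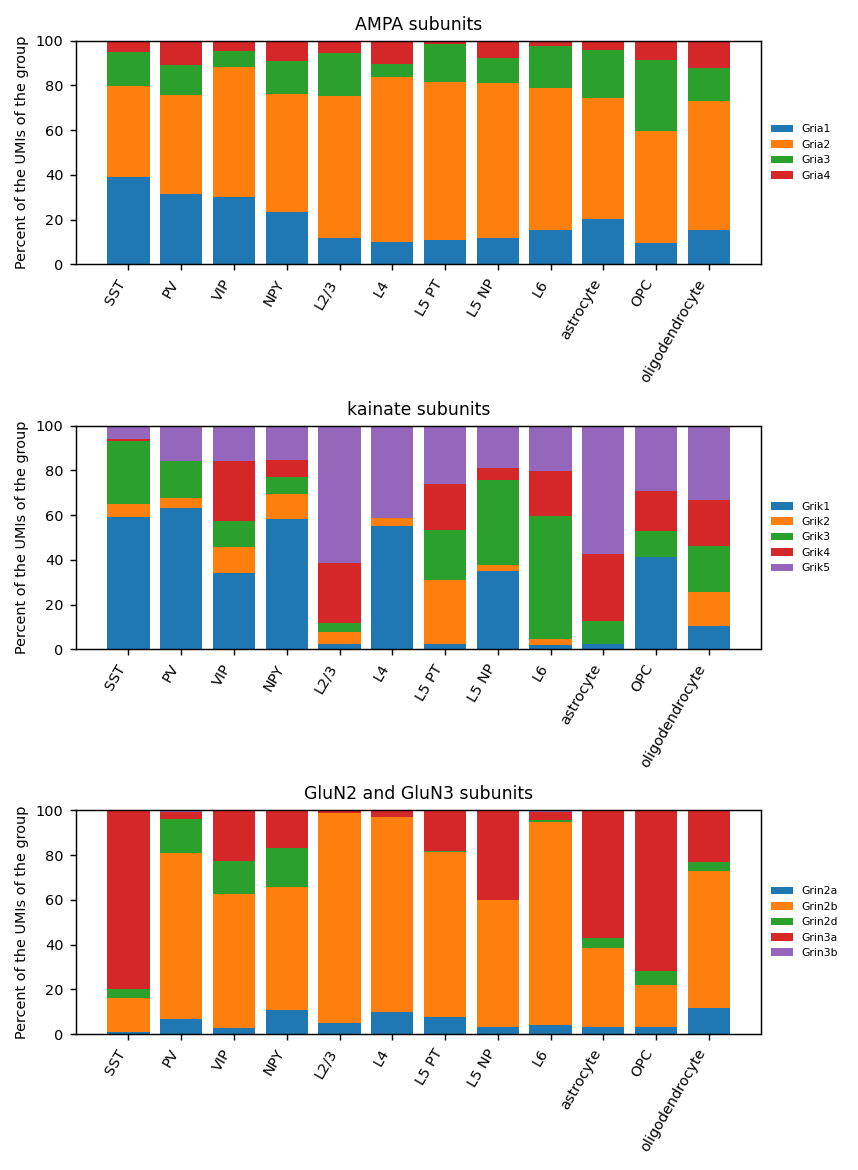
Share of each subunit (y axis, percent of the UMIs of the genes in the panel) in 12 types (x axis) for AMPA, kainate, and GluN2 and GluN3 genes. Grin3a takes 80.0% of its panel in SST against 2.96% in PV, and Grik3 takes 55.2% of the kainate panel in L6.

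Glial nuclei were shallower than neurons, with medians of 365.5 UMIs in astrocytes and 331.5 in OPC against 876 in SST, and most receptor genes were lower in them. Median log2 differences from excitatory nuclei were -1.78 over the 34 genes compared in astrocytes and -1.01 in OPC, against -0.50 and 0.00 over all genes. In astrocytes the 4 higher genes were Gabrg1, Gabrb1, Grm3 and Grin3a. Gabrg1 (gamma 1; chr5:70751047-70842617, minus strand) had 0.951, 2.54 and 4.12 UMIs per 10000 as the lowest, median and highest astrocyte library, against 0.0452 to 0.302 in excitatory nuclei, a 25.1-fold difference (16 to 40.7) that was 13.5-fold among nuclei with more than 500 UMIs. OPC were close to astrocytes, at 1.95 (1.19 to 3.02), and barcodes with 200 or fewer UMIs had 0.251. Gabrb1, also on chromosome 5, had 5.31 to 9.61 per astrocyte library against 2.55 to 4.42 per excitatory library, 2.01-fold higher (1.77 to 2.29) without overlap. The difference was 1.68-fold among nuclei with more than 500 UMIs and 1.91-fold to 1.98-fold without library 3 of set 1 or library 4 or 5 of set 2. It was also under 2-fold in library set 1 (1.94), with types from clusters (1.97) and without mitochondrial and the 20 most abundant genes (1.95).

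Grm3 was 2.40-fold (1.66 to 3.44) and Grin3a 2.24-fold (1.48 to 3.33) higher in astrocytes than in excitatory nuclei, and the latter was 1.36-fold in set 1, 3.71-fold in set 2 and 1.96-fold without library 4 of set 2. With types from clusters the former was 1.72-fold. Among the lower genes, Grm5, Grm8, Grm7, Gabra5, Gabra3, Grik3 and Grin1 were 7.05-fold to 10.3-fold lower in astrocytes, and 2.34-fold to 3.47-fold lower with types from clusters. These rested on few astrocyte UMIs, and leaving out 1 library raised Grm8 to 16.6-fold (library 1 of set 1) or 17.9-fold (library 4 of set 2), Gabra5 to 14.7-fold (library 2 of set 1) or 14.3-fold (library 2 of set 2), and Grm5 to 16.3-fold (library 3 of set 2). Grin1 was 16.1-fold lower in set 1 and 3.95-fold in set 2, and Gabra3 was 15.2-fold lower in set 2. Grm8 was 33.7-fold lower as the mean over nuclei and 4.84-fold among nuclei with more than 500 UMIs. Gria2 in astrocytes (5.09) was at the level of oligodendrocytes (4.26) and microglia (6.68), while barcodes with 200 or fewer UMIs had 16.8, and the part of free RNA in these levels was not tested. Grm3 reached 0.754 (0.522 to 1.05) in oligodendrocytes as well.

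OPC, like astrocytes, had Gabrg1 and Grin3a at least 2-fold above excitatory nuclei, although the Grin3a difference was smaller in astrocytes (2.24-fold). OPC also had more Gria3 and Grid1 than astrocytes. Grin3a had 0.802 to 4.45 per OPC library against 0.0818 to 0.569 per excitatory library, 5.97-fold higher (3.60 to 9.54), and 12.5-fold with types from clusters. Grid1 was 3.30-fold (1.95 to 5.29) higher than in excitatory nuclei, by 1.49-fold in set 1 and 5.40-fold in set 2. Grik1 and Gabrb2 were also higher but rested on 7 and 4 OPC UMIs. Grid1 was 1.88-fold higher among nuclei with more than 500 UMIs, and stood at 0.548 (0.351 to 0.815) in astrocytes. Gria3 stood at 8.21 (6.55 to 10.2) in OPC, above astrocytes (2.01; 1.61 to 2.48) and above barcodes with 200 or fewer UMIs (5.45), while Gria2 in OPC (12.8; 10.7 to 15.2) lay above astrocytes but under those barcodes (16.8). Markers of astrocytes summed to 56.3 UMIs per 10000 in OPC, with 2 of 12 markers at 0, and their part in the Gabrg1 level was not tested. Endothelial nuclei, the deepest of the glial and vascular types, had 0 UMIs of Grin3a among 603663, where the floor of 3 counts is a level of 0.0497, and Gria2 at 0.911.

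A fixed list of 52 further genes was also followed. It held genes for proteins that bind or process these receptors, and other ionotropic GABA and glycine receptor subunits. Between inhibitory and excitatory nuclei 38 of them had enough UMIs, and 11 were higher and 7 lower at least 2-fold in inhibitory nuclei (7.49% and 7.9% of all genes). Shisa6, which keeps AMPA receptors at synapses, and Cacng5, an AMPA receptor auxiliary subunit of the TARP family, were 13.9-fold (9 to 22.7) and 10.7-fold (5.54 to 23.2) higher. The scaffold gene Grip1 was 9.14-fold (6.52 to 13.1) higher, while the scaffold genes Dlg1 and Homer1 were 3.52-fold and 3.37-fold lower. SST nuclei had 11 of 34 genes higher and 3 lower than PV (7.43% and 6.24% of all genes), including Shisa6 at 21.0-fold (8.80 to 65.8) and Cbln4, a cerebellin which is on the list of SST markers but was not used to assign nuclei, at 14.1-fold (6.97 to 33.3). Against VIP, SST had 8 higher and 8 lower of 35 (11.3% and 6.07%). Cbln2, the other cerebellin that differed strongly, was 49.5-fold lower in SST and 68.3-fold lower in PV than in VIP, the interneuron type with most Grid1. PV had 4 higher and 12 lower than VIP of 32 (14.8% and 8.81%), and the kainate auxiliary gene Neto2 was 4.91-fold (3.5 to 7.06) higher in PV. Counts in the layers were 2 higher and 7 lower of 31 in L6 (6.08% and 10.4%) and 2 and 9 of 30 in L4 (5.4% and 11.1%), both against L2/3, and 2 and 4 of 28 in L5 PT against L5 IT (9.33% and 6.26%). In astrocytes 0 of 35 were higher and 27 lower than in excitatory nuclei (14.2% and 33.8%). In OPC 3 were higher and 12 lower of 35 (16% and 19.4%), and Cacng4, another TARP, was 112-fold (71.7 to 182) higher.

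The ATAC-seq counts asked which accessible regions at these genes differed between the 3 interneuron classes. Reads in regions were 1801883 to 2256073 per sample, and 1713 of the 323369 reference regions lay between 2000 bp before the start and the end of one of the 43 genes, Grin2c included. Of these, 174 passed the filter on low counts, among 40338 regions tested. By edgeR's quasi-likelihood test with Benjamini-Hochberg adjustment, 16 of the 174 differed between SST and PV (9.20%; 8.29% of all regions tested), 58 between SST and VIP (33.3%; 36.3%) and 73 between PV and VIP (42.0%; 49.1%). These shares were near those of all regions. The 16 became 5 without PV replicate 1, 7 without PV replicate 2, and 26 without SST replicate 1, while the 58 and 73 became 36 and 46 without VIP replicate 2. Those fits tested 229 to 242 regions at these genes rather than 174, and their calls among all regions moved as well. In the 3 comparisons DESeq2 called 2 of 107, 28 of 174 and 41 of 174 regions with an adjusted p. Among all regions it called 430 of 27825, 7456 of 40338 and 11614 of 40338. The 16 split into 8 higher and 8 lower in SST (3.96% and 4.33% of all regions), the 58 into 28 and 30 (17.8% and 18.4%), and the 73 into 38 higher and 35 lower in PV (24.6% each). The study's methods give 1 animal for each of the 2 independent experiments of a class. All 3 classes were fitted together, so the p-values rest on a spread estimated jointly from the pairs of animals of the 3 classes.

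The regions with the smallest adjusted p lay inside genes, far from the start, and the central 300 bases of 5 of them are shown. Only intronic regions were taken, and for each gene only the first in the lists by adjusted p. Regions over exons or with larger contrasts can therefore be missing. Each label names the class with more reads in the contrast from which the region was taken. Sequences are from the RefSeq copy of GRCm38, on the plus strand. Capitals mark TAATTA, a core of homeodomain sites, or TGANTCA, a looser form of the AP-1 core with any base allowed at its centre. On both strands TAATTA was present in the central 300 bases of 3.80% of the 40329 tested regions that could be read and of 2.87% of the 174, TGANTCA in 11% and 12.6%, and AGGTCA, a nuclear receptor core, in 12.3% and 13.2%. A match describes the letters only.

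Grik3 intron, chr4:125696198-125696497, high in SST: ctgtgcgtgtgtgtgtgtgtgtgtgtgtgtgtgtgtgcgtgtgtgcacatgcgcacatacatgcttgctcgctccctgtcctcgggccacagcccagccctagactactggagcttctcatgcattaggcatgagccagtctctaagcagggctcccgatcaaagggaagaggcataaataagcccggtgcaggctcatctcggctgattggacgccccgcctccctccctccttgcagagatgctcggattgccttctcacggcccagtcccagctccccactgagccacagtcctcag
Grik4 intron, chr9:42642862-42643161, high in SST: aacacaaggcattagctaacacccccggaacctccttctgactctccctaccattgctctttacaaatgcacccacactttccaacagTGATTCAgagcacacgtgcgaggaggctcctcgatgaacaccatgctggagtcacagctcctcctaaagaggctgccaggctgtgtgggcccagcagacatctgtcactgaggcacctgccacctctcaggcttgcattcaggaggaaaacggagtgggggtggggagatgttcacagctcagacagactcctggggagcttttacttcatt
Grid1 intron, chr14:35153926-35154225, high in PV: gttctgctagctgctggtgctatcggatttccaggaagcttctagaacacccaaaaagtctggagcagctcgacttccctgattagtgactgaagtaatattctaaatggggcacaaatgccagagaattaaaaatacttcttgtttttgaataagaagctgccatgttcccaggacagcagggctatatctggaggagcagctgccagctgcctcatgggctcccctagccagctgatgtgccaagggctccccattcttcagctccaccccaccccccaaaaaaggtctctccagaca
Grik1 intron, chr16:88244694-88244993, high in VIP: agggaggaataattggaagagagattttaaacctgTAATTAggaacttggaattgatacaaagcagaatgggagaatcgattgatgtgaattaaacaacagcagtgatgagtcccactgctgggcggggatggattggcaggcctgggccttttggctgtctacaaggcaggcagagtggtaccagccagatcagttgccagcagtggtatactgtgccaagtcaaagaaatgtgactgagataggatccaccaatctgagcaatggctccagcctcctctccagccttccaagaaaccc
Gabbr2 intron, chr4:46698610-46698909, high in VIP: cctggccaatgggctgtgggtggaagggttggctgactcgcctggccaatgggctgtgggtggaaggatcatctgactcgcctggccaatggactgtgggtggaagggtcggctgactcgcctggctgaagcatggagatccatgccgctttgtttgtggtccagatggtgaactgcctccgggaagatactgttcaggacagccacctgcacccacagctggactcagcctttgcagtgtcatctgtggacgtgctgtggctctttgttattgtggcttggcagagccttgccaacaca

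The Grik4 window held TGANTCA at 1 place, the Grik1 window held TAATTA at 1, and the other windows held none of these motifs.

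SST nuclei were set apart from PV by an intronic region of Grik3 (chr4:125695898-125696796), with 33 and 43 reads in the SST samples, 6 and 7 in PV and 3 and 4 in VIP. The SST counts lay above all the others, and the log2 difference was 2.38 (SE 0.44; edgeR adjusted p 0.00496) from PV and 3.45 (SE 0.48; adjusted p 4.87e-05) from VIP. The Grik4 intron (chr9:42642673-42643349) had 10 and 27 reads in SST and 1 and 0 in PV, and edgeR's adjusted p of 0.00663 became 0.155 without SST replicate 2. A region over a coding exon of Grik4 (chr9:42597390-42598229) had 42 and 66 reads in SST against 17 and 10 in PV, with an edgeR adjusted p of 0.00856 that became 0.0995 without PV replicate 2. Both Grik4 regions were taken from the contrast of SST with PV, and their reads in VIP are not given here. Of the 8 tested regions of Grik3, 1 was higher and 0 lower in SST than in PV, and 2 were higher and 1 lower than in VIP. For the 11 of Grik4 these counts were 3 and 0 against PV, and 1 and 4 against VIP. RNA of Grik3 was also highest in SST among the interneurons, whereas RNA of Grik4 was at 0.0591 in SST from 4 UMIs, below VIP at 0.638.

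PV nuclei had 2 intronic regions of Grid1 above the other classes. The first (chr14:35153615-35154536) had 65 and 46 reads in PV, 15 and 23 in SST and 11 and 15 in VIP, and the second (chr14:35357974-35358916) had 60 and 33, 9 and 16, and 5 and 1. Against SST their edgeR adjusted p were 0.00898 and 0.0107, which became 0.126 and 0.133 without PV replicate 1 and 0.0558 and 0.0654 with DESeq2. Of the 19 tested regions of Grid1, 5 were higher and 4 lower in PV than in VIP, and RNA of Grid1 was lower in PV than in VIP.

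VIP nuclei were set apart by regions at several genes. An intronic region of Grik1 (chr16:88244500-88245186) had 64 and 91 reads in VIP, 2 and 0 in SST and 0 and 0 in PV. VIP exceeded SST by a ratio of 75.9 with a counting interval of 20.6 to 632, and PV at least 45.8-fold against the floor of 3 reads. Of the 7 tested regions of Grik1, 1 was higher and 2 lower in SST than in VIP, and 2 were higher and 2 lower in PV than in VIP. RNA of Grik1 was lowest in VIP (0.805) of the 4 interneuron types. At Gabbr2, 3 regions (chr4:46683969-46684699 over a coding exon, and chr4:46698381-46699137 and chr4:46699930-46700739 in introns) had 49 to 109 reads per VIP sample and 2 to 10 per SST or PV sample. Of all 28 tested regions of Gabbr2, 5 were higher and 4 lower in SST than in VIP, and 5 were higher and 5 lower in PV than in VIP. RNA of Gabbr2 did not pass 2-fold between VIP (3.22) and SST (3.77) or PV (4.45). Regions over coding exons of Grm4 (chr17:27422347-27423443; 62 and 71 reads in VIP) and Grik4 (chr9:42549914-42550779; 51 and 51) had at most 9 and at most 7 reads in the samples of the other classes.

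**Figure D5:**
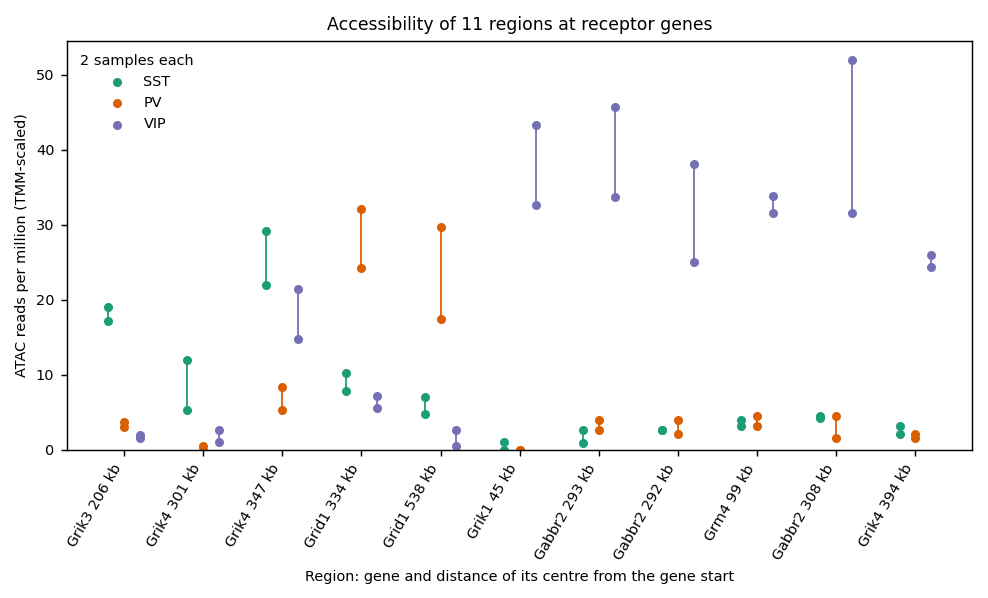
ATAC-seq signal (y axis, CPM after TMM scaling) at the 11 named regions (x axis, gene and distance of the centre from the gene start) in SST, PV and VIP nuclei. Each point is 1 of the 2 samples of a class and a line joins the pair, as at the Grik1 region, where VIP had 64 and 91 reads and the other classes at most 2.

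Regions at the starts of the genes were also counted, and the start regions named here were chosen after their values were seen. Of 53 tested regions within 2000 bp of a start, edgeR called 0 between SST and PV, where 5 had an unadjusted p under 0.05, and DESeq2 also called 0 with 4 under 0.05. The edgeR counts were 9 between SST and VIP and 15 between PV and VIP, and those of DESeq2 3 and 8. Among all 14360 tested regions within 2000 bp of the start of a protein coding gene, 3.73%, 19.5% and 38.4% were called in these comparisons. Of the start regions of Grin3a, the one with the smaller adjusted p between SST and PV (chr4:49844110-49844710, over a coding exon) had 27 and 36 reads in SST, 16 and 7 in PV and 30 and 30 in VIP. Its edgeR adjusted p was 0.0604 between SST and PV, and SST and VIP had like counts although their Grin3a RNA differed 13.8-fold. Of the 2 start regions of Grin3a, edgeR called 1 lower in PV than in VIP and 0 in either contrast with SST. The start region of Gria4 (over a UTR exon) had 68 and 51 reads in SST, 71 and 43 in PV and 18 and 32 in VIP, lower in VIP by both tests (edgeR adjusted p 0.00712 against SST and 0.00425 against PV), and VIP also had the lowest Gria4 RNA of the interneurons. Of the 2 start regions of Gria2, 1 was higher in VIP (83 and 108 reads) than in PV (34 and 34; edgeR adjusted p 0.00303) and the other was not called (46 and 32 against 50 and 34; edgeR adjusted p 0.516). RNA of Gria2 stood at 19.3 in VIP and 19.2 in PV. The start region of Gabrd had 3 and 14 reads in SST and 10 and 6 in PV and did not pass the threshold (edgeR adjusted p 0.964), while Gabrd RNA differed 5.08-fold between these classes.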

How the data were processed

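RNA of single nuclei was measured by droplet sequencing (inDrops) in 1 sample deposited as 10 libraries, and open chromatin by ATAC-seq in 6 samples. The authors deposited the nuclei as UMI counts per gene and barcode, made with the inDrops pipeline, without normalization. They deposited the ATAC-seq data as read counts per region of a common reference set on GRCm38, and the submitters' processing notes name Trimmomatic 0.33, Subread 1.4.6-p3, featureCounts, SAMtools, bedtools, MACS2 and HOMER. A deposited table of annotated elements that holds the authors' own comparisons and the peak files were not used.

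The cut for a nucleus was above 200 UMIs, viral transcripts not counted. Nuclei were assigned by minimum UMIs of marker genes, with thresholds set after the marker genes had been seen. No doublet caller was run, and 56 nuclei that met several gates were left out. Levels are UMIs per 10000, with exact Poisson intervals, exact binomial intervals for shares and conditional binomial intervals for ratios, all at 95%. A group at 0 was set to a floor of 3 counts. A pair was compared from 20 UMIs, and 2-fold was the threshold. Intervals cover counting error only. In each comparison the genes named were those past 2-fold with at least 50 UMIs in both groups together, up to 8 per direction taken by size of fold, together with a fixed list of subunit genes with at least 50 UMIs in the kept nuclei. At most 10 genes of the further list were named by fold, and at most the 6 regions with the smallest adjusted p in each contrast. Other genes named for context (such as Grik2, Grik4, Grik5, Grm8 and Gabrb2) and the start regions were chosen after their values were seen wherever they fell outside this rule.

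ATAC-seq counts of all 6 samples were fitted together with edgeR's quasi-likelihood test (TMM, filterByExpr, Benjamini-Hochberg, adjusted p 0.05). Region starts were read as counted from 0 and are printed from 1. Genes took regions from 2000 bp before their start to their end. Scripts used Python 3.11.15, numpy 2.4.6, scipy 1.17.1, pandas 2.3.3, scanpy 1.11.5, leidenalg 0.10.2, matplotlib 3.10.9, R 4.3.3, edgeR 4.0.16 and DESeq2 1.42.0, and were tested on simulated data. Values of some receptor genes and of some subunit shares are not reported here, while all members stay in the counts. Members, gene lists and gates were chosen with earlier results of these data known. Alternatives were other thresholds, library sets, clusters, normalizations, DESeq2, the replicate block and leaving out each library or sample.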

Additional observations from a re-analysis of the deposited data

How the results depend on the processing

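Of the 12 counts of receptor genes or regions, 193 alternatives stayed within 1.5 times the main count and 30 did not. Lowering the threshold to 1.5-fold gave 17 genes between inhibitory and excitatory nuclei, 17 between PV and VIP and 13 between L6 and L2/3. Requiring 100 UMIs left 7 genes for SST against PV, 8 for SST against VIP, 5 for PV against VIP, 2 each for L6 and L4, and 1 for L5 PT. Library set 1 alone gave 3 genes in L4 and 5 in L5 PT, and set 2 alone gave 13 for inhibitory nuclei, 9 for SST against VIP, 5 for L5 PT and 15 for OPC. Leiden clusters gave 4 genes in L4, where the clusters mixed layers. Leaving out 1 library gave 7 to 9 genes for inhibitory nuclei, 13 to 14 for SST against PV, 11 to 15 for SST against VIP, 10 to 12 for PV against VIP, 6 to 8 for L6, 6 to 7 for L4, 9 to 11 for L5 PT, 26 to 28 for astrocytes and 21 to 24 for OPC. The cause of these shifts was not tested, and shares of all genes under these alternatives are not given here. Marker gates with 1 UMI more, counting the viral transcript in the cut and taking all nuclei with excitatory markers were added after seeing the data, and none moved a count past 1.5 times. Clusters for L5 IT and stricter gates for L4 left too few nuclei and were not run.

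Counts for ATAC-seq are given in the order SST against PV, SST against VIP and PV against VIP. Regions near gene starts gave 0, 9 and 15 calls of 53 tested. Without a filter on low counts there were 0, 25 and 30 calls among 1599 regions at these genes. Of those 1599, 90, 177 and 179 had an unadjusted p under 0.05 in edgeR. Among all 310118 regions tested without the filter, 0, 7019 and 10868 were called. DESeq2 called 2, 28 and 41, and 67 SST against PV regions had no adjusted p. Leaving out 1 sample gave 5 to 26, 36 to 68 and 46 to 100 calls. The lowest values came without PV replicate 1 (5) or VIP replicate 2 (36 and 46), and SST against PV had 7 without PV replicate 2 and 26 without SST replicate 1. The fits without 1 sample tested 226 to 242 regions at these genes rather than 174, and their calls among all regions moved as well. The replicate block called 13, 59 and 70 regions, of which 12, 57 and 69 were shared with the fit without it. Among all 40338 regions the replicate block called 2557, 13993 and 19159. The difference of replicate 1 from replicate 2 was correlated between classes, at 0.02 for SST and PV, 0.03 for SST and VIP and -0.04 for PV and VIP. No pairing of samples by replicate number across classes was therefore seen. Named gene differences moved by over 1.5 times for 24 of 68 with types from Leiden clusters (where 17 of 68 fell under 2-fold), for 15 of 72 in each library set alone, for 8 of 72 with more than 500 UMIs, 7 of 69 with stricter gates, 6 of 72 as means over nuclei and 5 of 31 with all nuclei that had excitatory markers. None changed direction. Of the 18 named region calls, DESeq2 kept 14, lost 3 and gave 1 no adjusted p, and leaving out 1 sample lost 4 calls. Libraries are parts of 1 sample, so animals cannot be compared, and 2 ATAC-seq samples per class limit the calls.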
